A study of Homo sapiens with 2 samples.

Results

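The cytochrome P450 genes were examined in PLC-8024 cells with and without GDF1 overexpression. PLC-8024 is a human hepatocellular carcinoma (HCC) cell line, and GDF1 is a secreted ligand of the TGF-β superfamily. The study transduced PLC-8024 cells with lentivirus carrying GDF1 or a control vector, selected stable cells with puromycin, and sequenced 1 library of PLC-8024-CTR cells (genotype control) and 1 library of PLC-8024-GDF1 cells (genotype GDF1-overexpression). Whether the cells were 1 clone or a pool is not given in the sources used here. The members were taken by name from the table of genes, as every symbol made of CYP, a family number, a subfamily letter and a gene number, leaving out CYP51A1. This rule found 55 genes among the 58174 genes listed, and 22 of them reached at least 1 TPM in either library. TPM is a transcript level already scaled by gene length and library total, so levels of different genes may be compared. Sequencing depth cannot be read from TPM. With 1 library per condition there was no replicate check, no test and no counting error, and every difference described here is a difference between these 2 libraries. Below, pairs of values give the control library (PLC-8024-CTR) first and the GDF1 library (PLC-8024-GDF1) second.

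Cytochrome P450 enzymes are haem proteins that insert an oxygen atom into small lipophilic molecules. Most of them sit in the endoplasmic reticulum and receive electrons from P450 oxidoreductase (POR), with cytochrome b5 as a second donor, and a few sit in mitochondria and use ferredoxin. In the adult liver they clear drugs and toxicants and make bile acids from cholesterol, and other members activate or inactivate vitamin D, retinoic acid, eicosanoids and steroid hormones. Their liver expression is driven by factors such as HNF4A and by the ligand-bound receptors AHR, PXR (NR1I2) and CAR (NR1I3).

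Several P450 genes typical of an adult hepatocyte were low or listed at 0 in both libraries. Other P450 genes, among them CYP3A5, CYP2D6 and CYP27A1, reached 1 TPM and are described below. CYP7A1, which starts the classic bile acid pathway, was listed at 0 in both, and so were CYP7B1 of the alternative bile acid pathway, CYP2C19 and the fatty acid hydroxylases CYP4A11 and CYP4A22. CYP3A4, the main drug-oxidising enzyme of adult liver, was listed at 0.41 TPM in the control and 0.20 TPM with GDF1. CYP2E1, which oxidises ethanol, was listed at 0.75 and 0.69 TPM, and CYP2B6 at 0.20 and 0.16 TPM. CYP1A2 was listed at 0 in the control and at 0.043 TPM with GDF1, and CYP8B1, which sets the type of bile acid made, at 0.056 and 0.016 TPM. In all, 33 of the 55 genes stayed under 1 TPM in both libraries, and 13 of these were listed at 0 in both. SLC25A38, a mitochondrial carrier that haem synthesis uses, was listed at 0 in both libraries as well. Whether a value listed at 0 was a true absence or a failed estimate was not tested. The genes nearest the limit of 1 TPM were CYP4F2 (0.53 and 0.95 TPM) and CYP21A2 (0.33 and 0.84 TPM) below it, and CYP3A7 (1.05 and 0.55 TPM) and CYP4F11 (0.61 and 1.14 TPM) above it.

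The sequence around the gene start is shown for a few members, because its CpG content differed between the members with and without at least 1 TPM. RefSeq promoter windows (GRCh38.p14, from 250 bases before to 50 bases after the gene start) were matched by symbol for 38 of the 55 genes, 14 of them among the 22 with at least 1 TPM. CYP2C18, CYP4F12, CYP24A1, CYP2D6, CYP2D7, CYP27B1 and CYP46A1 were among those not matched. In the first 4 windows the capitals mark each CpG dinucleotide. CYP2S1, the P450 gene with the most TPM in the control, has 29 of them (chr19:41192969-41193268, plus strand), CYP26A1, the member with the most negative log2 change, has 12 (chr10:93073225-93073524, plus strand), CYP3A5 has 2 (chr7:99679947-99680246, minus strand) and CYP3A4 has 0 (chr7:99784135-99784434, minus strand).
CYP2S1: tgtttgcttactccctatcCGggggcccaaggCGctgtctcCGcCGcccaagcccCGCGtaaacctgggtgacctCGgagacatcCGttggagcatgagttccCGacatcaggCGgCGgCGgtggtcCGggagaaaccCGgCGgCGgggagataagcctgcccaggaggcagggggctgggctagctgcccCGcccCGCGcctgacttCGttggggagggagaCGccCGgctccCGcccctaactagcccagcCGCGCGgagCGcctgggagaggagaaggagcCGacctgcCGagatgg
CYP26A1: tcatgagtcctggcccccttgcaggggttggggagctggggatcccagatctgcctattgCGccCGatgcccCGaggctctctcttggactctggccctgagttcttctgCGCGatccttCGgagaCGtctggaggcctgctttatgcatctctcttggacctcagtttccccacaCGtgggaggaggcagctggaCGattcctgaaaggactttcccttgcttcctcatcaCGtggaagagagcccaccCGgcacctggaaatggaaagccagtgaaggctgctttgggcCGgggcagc
CYP3A5: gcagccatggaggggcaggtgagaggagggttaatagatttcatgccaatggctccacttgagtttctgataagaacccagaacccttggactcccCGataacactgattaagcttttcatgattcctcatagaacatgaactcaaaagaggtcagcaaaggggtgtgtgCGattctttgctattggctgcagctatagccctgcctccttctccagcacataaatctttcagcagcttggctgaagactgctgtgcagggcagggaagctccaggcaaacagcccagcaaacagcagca
CYP3A4: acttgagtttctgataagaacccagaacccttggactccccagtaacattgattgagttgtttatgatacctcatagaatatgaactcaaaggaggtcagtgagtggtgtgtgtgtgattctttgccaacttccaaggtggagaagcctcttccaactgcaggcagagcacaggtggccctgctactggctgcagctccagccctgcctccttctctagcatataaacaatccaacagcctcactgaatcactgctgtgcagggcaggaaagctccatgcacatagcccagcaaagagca

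The 14 matched genes with at least 1 TPM had 2 to 31 CpG dinucleotides in the window, with a median of 17.5. The 24 matched genes under 1 TPM had 0 to 36, with a median of 2, and over all 35116 promoter windows of this length the median was 14. At least 10 were present in 10 of the 14 and in 5 of the 24, against 56.4% of all windows. CYP26C1, with 29, was listed at 0 in both libraries, and CYP4F3, with 3, was listed at 18.0 TPM in the control, so single genes departed from this pattern in both directions. These counts are a description and were not tested.

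**Figure D1:**
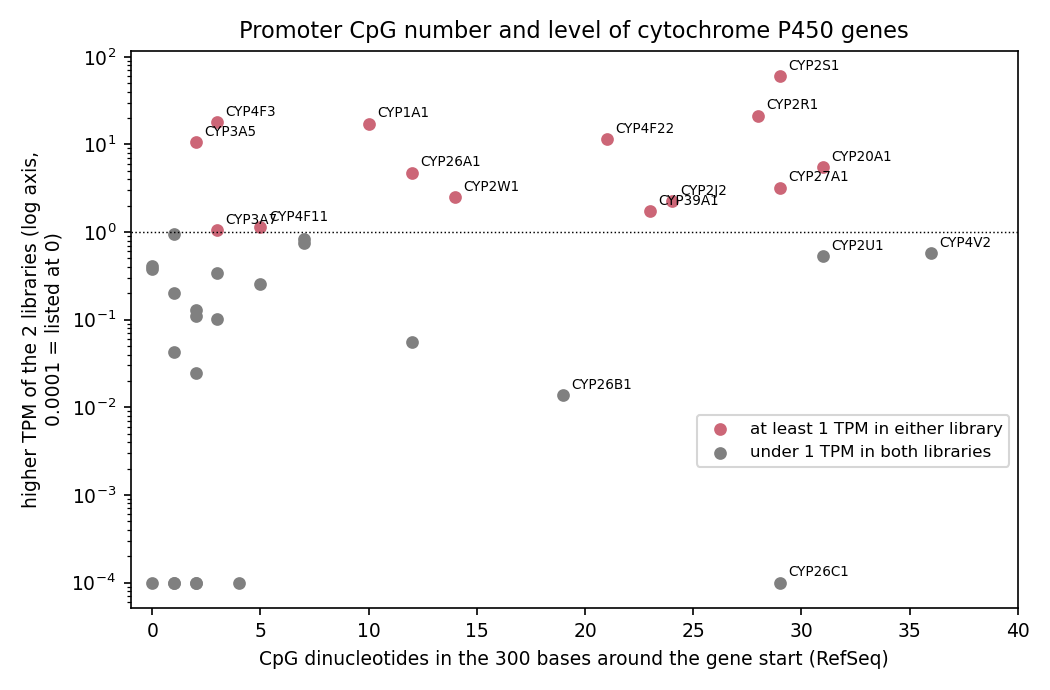
Number of CpG dinucleotides in the 300 bases around the gene start (x axis) against the higher TPM of the 2 libraries (y axis, log scale, 0.0001 for genes listed at 0) for the 38 P450 genes with a RefSeq window. Points are genes, coloured by whether they reach 1 TPM, and of the genes with fewer than 10 CpG dinucleotides only CYP4F3, CYP3A5, CYP3A7 and CYP4F11 reach 1 TPM.

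A second pair of windows shows the core of the xenobiotic response element, GCGTG or its reverse complement CACGC, to which the AHR-ARNT dimer binds. CYP1A1, the classic AHR target, has 1 such match (chr15:74725479-74725778, minus strand), which starts 57 bases before the gene start, followed by a TATAAA box 32 bases before it. CYP2W1 has 2 matches (chr7:982931-983230, plus strand), which start 144 and 50 bases before the gene start. Capitals mark the matches.
CYP1A1: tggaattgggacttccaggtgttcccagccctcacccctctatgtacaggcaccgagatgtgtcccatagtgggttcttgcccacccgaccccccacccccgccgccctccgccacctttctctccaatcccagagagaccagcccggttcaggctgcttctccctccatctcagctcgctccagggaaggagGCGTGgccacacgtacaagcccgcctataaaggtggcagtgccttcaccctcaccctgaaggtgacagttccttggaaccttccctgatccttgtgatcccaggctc
CYP2W1: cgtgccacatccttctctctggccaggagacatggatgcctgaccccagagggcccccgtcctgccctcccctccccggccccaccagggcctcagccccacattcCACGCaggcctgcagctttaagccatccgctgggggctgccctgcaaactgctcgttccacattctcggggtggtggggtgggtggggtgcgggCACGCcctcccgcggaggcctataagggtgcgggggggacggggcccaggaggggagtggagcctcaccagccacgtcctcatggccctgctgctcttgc

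The core was present on either strand in 5 of the 14 matched genes with at least 1 TPM, in 5 of the 24 under 1 TPM and in 36.5% of all 35116 windows. It was absent from the window of CYP2S1, described below as AHR-inducible, and present in those of CYP20A1, CYP4F22 and CYP2J2. The TATAAA box, read on either strand, was present in 2 of the 14 (CYP1A1 and CYP3A7), in 12 of the 24 and in 11.5% of all windows. A match of letters is not a bound site.

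A log2 change is the difference of log2(TPM + 1), GDF1 library minus control, and this pseudocount of 1 TPM makes the change of low genes smaller. A gene is counted as past 2-fold when this log2 change is above 1 or below -1. Of the 22 P450 genes, 1 was past 2-fold higher with GDF1 (CYP2C18), 1 was past 2-fold lower (CYP26A1) and 20 lay within 2-fold. Among all 14929 genes that reached 1 TPM, 14.4% were past 2-fold, 4.82% higher and 9.61% lower, against 9.09% of the P450 genes. With the GC trend described at the end subtracted, the shares were 12.3% of all genes and 22.7% of the P450 genes, so which of the 2 was larger depended on this setting. The median log2 change was -0.16 over the 22 genes and -0.20 over all genes, and the interquartile range ran from -0.71 to 0.39 over the 22 and from -0.59 to 0.22 over all genes. A log2 change above 0 was seen for 10 of the 22 P450 genes (45.5%) and for 36.7% of all genes. When the TPM of the GDF1 library were multiplied by 1.15, which set the median log2 ratio of genes with at least 5 TPM to 0, the split over all genes became 1040 higher and 1022 lower in place of 720 and 1434, and 2 P450 genes were past 2-fold higher (CYP2C18 and CYP2W1) with 1 lower (CYP26A1). This general shift was -0.21 on the log2 scale before rescaling, and among the P450, partner, haem, receptor and retinoid genes named here the direction flipped with rescaling for CYP2D7, CYP2E1, ALDH1A1, DHRS3, CEBPA, NR1H2, NR1H3 and RARB.

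**Figure D2:**
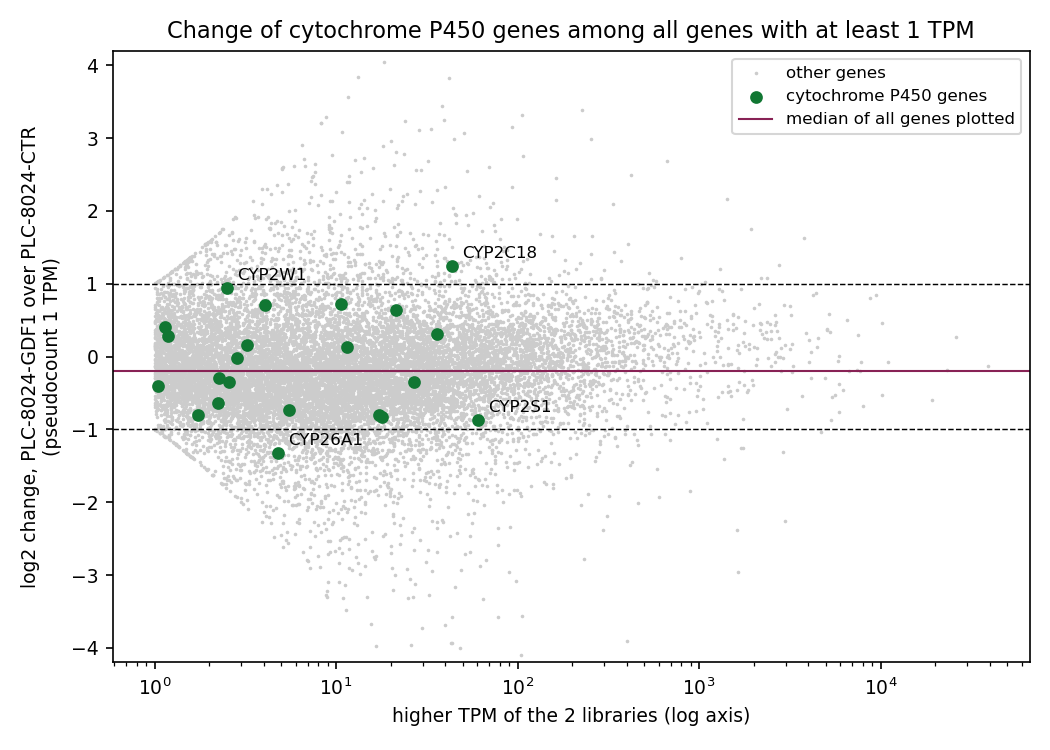
Log2 change, GDF1 library minus control (y axis, pseudocount 1 TPM) against the higher TPM of the 2 libraries (x axis, log scale) for all 14929 genes that reached 1 TPM (grey, 12 of them outside the range drawn) and the 22 P450 genes (green). Dashed lines mark 2-fold and the solid line the median of all genes (-0.20), and of the P450 genes only CYP2C18 and CYP26A1 lie outside the dashed lines.

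The summed level of the whole family was nearly equal, at 232.4 TPM in the control and 225.4 TPM with GDF1, but its make-up differed. In PLC-8024-CTR the most abundant member was CYP2S1 (25.9% of the sum), followed by CYP4F12 (12.4%) and CYP24A1 (11.5%). In PLC-8024-GDF1 it was CYP2C18 (19.3%), followed by CYP4F12 (15.9%) and CYP2S1 (14.4%). CYP2C18 moved from the fifth place to the first. The top 3 genes held 49.8% of the sum in the control and 49.6% with GDF1. At least 10 TPM were listed for 8 genes and 7 genes, respectively.

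**Figure D3:**
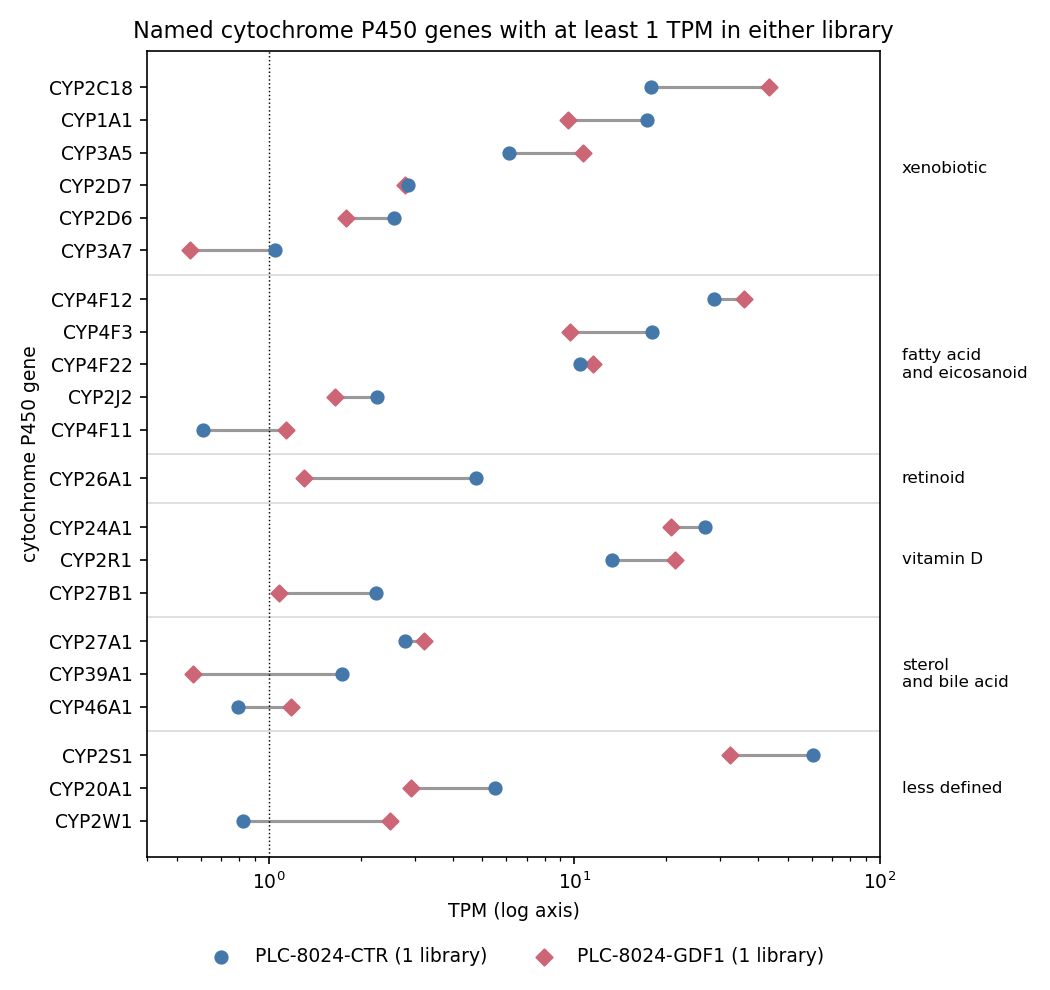
TPM (x axis, log scale) of the P450 genes named here that reached 1 TPM, grouped by role and ordered by control level. Circles are the PLC-8024-CTR library and diamonds the PLC-8024-GDF1 library, joined by a line, and the longest lines belong to CYP26A1, CYP39A1, CYP2W1 and CYP2C18.

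Among the 19 genes of drug and xenobiotic metabolism, 7 reached 1 TPM. Their group sum was 51.2 TPM in the control and 74.7 TPM with GDF1, and the 18 genes other than CYP2C18 summed to 33.4 TPM in the control and 31.2 TPM with GDF1. CYP2C18 (ENSG00000108242), a CYP2C enzyme found in epithelia outside the liver as well, was listed at 17.8 TPM in the control and 43.4 TPM with GDF1, a ratio of 2.44 and a log2 change of 1.24. It had the highest change of the 22 P450 genes, and 2.82% of all expressed genes had a change as large or larger. It lies on chromosome 10 of GRCh37 (hg19) from 96443486 to 96495947, at one end of the CYP2C cluster. A share of 37.6% of the 100-base windows of its longest transcript also occurs in AL583836.1, a read-through gene of the cluster, which was listed at 0.14 and 0.60 TPM.

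Of its neighbours in the cluster, CYP2C8, a drug-metabolising enzyme of adult liver, was listed at 0 in the control and at 0.38 TPM with GDF1, and CYP2C19 was listed at 0 in both.

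Of the 4 genes of the CYP3A cluster on chromosome 7 (99245817 to 99463716), 2 were higher with GDF1 and 2 lower. Only 2 of the 4 reached 1 TPM. CYP3A5, an adult form with a common inactive allele, was listed at 6.10 TPM in the control and 10.7 TPM with GDF1 (log2 change 0.72). CYP3A7, the form of fetal liver, was listed at 1.05 and 0.55 TPM (log2 change -0.40), and CYP3A4 was lower with GDF1 as well. These 2 lower genes lay near or under 1 TPM. With the GC trend described at the end subtracted, CYP3A7 shrank to -0.025 but stayed lower. CYP3A4 went from -0.23 to 0.13, so its direction depended on this setting. CYP3A7 shares 53.3% of its windows with other genes, mostly the read-through gene CYP3A7-CYP3A51P, which was listed at 0.32 TPM and then at 0.

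CYP1A1, which the receptor AHR induces and which activates polycyclic hydrocarbons, was listed at 17.3 TPM in the control and 9.50 TPM with GDF1, a log2 change of -0.80. It was the only CYP1 gene with at least 1 TPM, since CYP1A2 and CYP1B1 stayed at or under 0.043 TPM in both libraries. AHR itself was listed at 3.56 and 2.14 TPM and its partner ARNT at 8.64 and 7.47 TPM. Of the 4 other AHR-responsive genes examined, NQO1, which NRF2 also induces, was higher with GDF1 (56.7 and 77.2 TPM), TIPARP was lower (3.70 and 2.28 TPM), and none passed 2-fold. Of these 4 genes, 1 was higher and 3 were lower, and over all genes 36.7% had a log2 change above 0. CYP1A1, AHR and ARNT were also lower with GDF1, each within 2-fold. With the GC trend described at the end subtracted, AHR came to -0.10, TIPARP to -0.17 and ARNT to 0.078. Whether these changes belong together was not tested.

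CYP2D6, which metabolises many antidepressants and opioids, was listed at 2.56 and 1.79 TPM (log2 change -0.35), and its neighbour CYP2D7, which is a pseudogene in most people, at 2.86 and 2.80 TPM (log2 change -0.023). Of the windows of CYP2D6, 32.3% also occur in CYP2D7 or CYP2D8P, so the division of reads between CYP2D6 and CYP2D7 is uncertain. Their added level was 5.42 TPM in the control and 4.59 TPM with GDF1.

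Among the 14 genes of fatty acid and eicosanoid oxidation, 5 reached 1 TPM, and none passed 2-fold. The group sum was 61.4 TPM in the control and 61.9 TPM with GDF1. All but a little of it came from the CYP4F cluster on chromosome 19 (15619336 to 16045677), whose members hydroxylate the omega end of fatty acids, leukotrienes and vitamin K. CYP4F12, the highest of them, was listed at 28.8 TPM in the control and 35.9 TPM with GDF1 (log2 change 0.31). CYP4F3, which inactivates leukotrienes, went the other way, with 18.0 and 9.68 TPM (log2 change -0.83).

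CYP4F22, an enzyme of skin barrier lipids, was listed at 10.4 and 11.6 TPM (log2 change 0.14), and CYP4F11 at 0.61 and 1.14 TPM (log2 change 0.41). The neighbouring pseudogene CYP4F26P, which the rule does not include, was listed at 5.25 and 9.92 TPM. CYP4F3 was thus the only one of the 5 CYP4F genes with any level that was lower with GDF1, while CYP4F8 was listed at 0 in both. CYP4F3 shares 1.88% of its windows with CYP4F2, and CYP4F12, CYP4F22 and CYP4F11 share none. CYP2J2, the epoxygenase of arachidonic acid, was listed at 2.26 and 1.65 TPM (log2 change -0.30).

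CYP26A1 (ENSG00000095596), which degrades retinoic acid and is itself induced by it, had the most negative change of the family. It was listed at 4.77 TPM in the control and 1.31 TPM with GDF1, so that the control had 3.65 times the level with GDF1 (log2 change -1.32), and 4.58% of all expressed genes had a lower change. The gene lies on chromosome 10 of GRCh37 from 94833232 to 94837642, and 30.4% of its windows also occur in ENSG00000285846. The other retinoid members CYP26B1, CYP26C1 and CYP27C1 were at or under 0.055 TPM in both libraries.

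Genes that supply and bind retinoids were also examined. Of the 7 retinoid-handling genes with at least 1 TPM, 1 passed 2-fold (14.3%, against 14.4% of all genes in either direction and 4.82% higher). This was CRABP1, a retinoic acid binding protein, which was higher with GDF1 (1.55 and 5.65 TPM, log2 change 1.38). ALDH1A1, which makes retinoic acid, was listed at 292.7 and 268.0 TPM, and DHRS3, which returns retinal to retinol, at 114.6 and 110.4 TPM. The receptors RARA (13.3 and 14.02 TPM), RARG (8.64 and 11.4 TPM) and RARB (1.45 and 1.38 TPM) lay within 2-fold.

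All 3 vitamin D genes reached 1 TPM, and none passed 2-fold. CYP24A1, the mitochondrial enzyme that inactivates vitamin D, was listed at 26.7 TPM in the control and 20.8 TPM with GDF1 (log2 change -0.35). CYP2R1, the microsomal enzyme of the first activating step, was listed at 13.3 and 21.3 TPM (log2 change 0.64). CYP27B1, the mitochondrial enzyme of the second activating step, was listed at 2.24 and 1.08 TPM (log2 change -0.64, plain log2 ratio -1.06).

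With GDF1 the transcript for the first activating step was thus higher and that for the second lower. The transcript of the vitamin D receptor, VDR, was listed at 0.088 and 0.12 TPM. CYP27B1 overlaps METTL1 on the same strand by 107 exon bases (3.26% of its exon length). METTL1 was listed at 28.3 and 45.9 TPM, many times the level of CYP27B1, so that the added level of the pair (log2 change 0.61) followed METTL1 (0.68) by construction. How reads in the shared bases were divided was not tested.

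Of the 6 sterol and bile acid genes, 3 reached 1 TPM. CYP39A1, which hydroxylates an oxysterol of brain origin in the liver, was listed at 1.74 TPM in the control and 0.57 TPM with GDF1. Its log2 change was -0.81, and the plain TPM ratio, with no pseudocount, passed 2-fold (log2 ratio -1.62). CYP27A1, the mitochondrial sterol hydroxylase, was listed at 2.79 and 3.22 TPM (log2 change 0.16), and CYP46A1, the cholesterol hydroxylase best known from neurons, at 0.79 and 1.18 TPM (log2 change 0.28).

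Other genes of bile acid synthesis and transport were compared as well. Of the 8 with at least 1 TPM, 2 passed 2-fold, both lower with GDF1 (25% of the list, against 9.61% of all genes lower). AMACR, a racemase of bile acid side chains, was listed at 4.01 and 1.36 TPM (log2 change -1.09), and BAAT, which conjugates bile acids with glycine or taurine, at 3.07 and 0.88 TPM (log2 change -1.11). SLC27A5, the bile acid CoA ligase, was higher, with 44.8 and 79.2 TPM (log2 change 0.81). These calls depended on the scaling. With the GC trend subtracted AMACR (-0.75) and BAAT (-0.72) came inside 2-fold, and with rescaled TPM AMACR (-0.97) came inside and SLC27A5 (1.01) passed 2-fold higher. The transporters SLC10A1 and ABCB11 were listed at 0 in both libraries.

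None of the 6 steroid hormone genes reached 1 TPM. The highest value was that of CYP21A2, an adrenal enzyme, at 0.84 TPM with GDF1, and 35.3% of its windows also occur in other genes, mainly the pseudogene CYP21A1P. CYP11B1 and CYP11B2, the last steps to cortisol and aldosterone, were listed at 0 in both. CYP17A1 (0.074 and 0.34 TPM) overlaps WBP1L on the opposite strand by 41.9% of its exon length, and WBP1L was listed at 13.9 and 12.7 TPM.

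The 3 members with less defined substrates included the most abundant one. CYP2S1 (ENSG00000167600), an AHR-inducible enzyme of epithelia outside the liver, was listed at 60.3 TPM in the control and 32.4 TPM with GDF1 (log2 change -0.88), and 12.7% of all expressed genes had a lower change. CYP20A1, an orphan member, was listed at 5.51 and 2.93 TPM (log2 change -0.73). CYP2W1, known from fetal gut and colorectal tumours, was listed at 0.82 and 2.50 TPM. Its log2 change of 0.94 lay just inside 2-fold, and its plain ratio was 3.05 (log2 ratio 1.61).

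By site in the cell, 3 mitochondrial genes reached 1 TPM (CYP24A1, CYP27A1 and CYP27B1), with a sum over all 7 mitochondrial members of 32.0 TPM in the control and 25.4 TPM with GDF1. The 48 microsomal members summed to 200.4 TPM in the control, with a log2 change of the sum of -0.0029, and both genes past 2-fold were among them.

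The genes listed as electron partners of P450 enzymes were all present. POR was equal, at 207.7 TPM in the control and 208.0 TPM with GDF1, which was close to the summed level of all P450 genes. Of the 10 partner genes, 2 passed 2-fold, both lower with GDF1 (20%, against 9.61% of all genes lower). CYB5A, the microsomal cytochrome b5, was listed at 36.8 and 10.99 TPM (log2 change -1.66), and CYB5R3, a reductase of cytochrome b5, at 42.4 and 17.4 TPM (log2 change -1.23). CYB5B, the form of the mitochondrial outer membrane, was listed at 63.2 and 71.2 TPM. The mitochondrial genes FDXR (20.01 and 21.0 TPM), FDX1 (15.9 and 9.98 TPM) and FDX2 (52.6 and 72.1 TPM) lay within 2-fold. The 2 ferredoxins differed in direction, with FDX1 lower (log2 change -0.62) and FDX2 higher (0.45).

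Of the 10 genes of haem synthesis and breakdown with at least 1 TPM, 1 passed 2-fold, in the lower direction (10%, against 9.61% of all genes lower). FECH, ferrochelatase, which inserts iron as the last step of haem synthesis, was listed at 10.9 and 2.99 TPM (log2 change -1.57). ALAS1, the rate-limiting first enzyme in liver, was lower as well but within 2-fold (54.8 and 29.4 TPM, log2 change -0.88). UROD (105.8 and 111.8 TPM) and HMOX1 (88.5 and 75.8 TPM) lay near equality. Over the partner and haem genes together, 3 of 20 passed 2-fold (15%, against 14.4% of all genes in either direction). All 3 were lower with GDF1, and 9.61% of all genes were past 2-fold lower. The median log2 change was -0.24, against -0.20 over all genes.

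Among the 25 nuclear receptors and transcription factors with at least 1 TPM, 4 passed 2-fold (16%, against 14.4% of all genes), 1 higher and 3 lower. Among them, HNF4A (11.4 and 5.15 TPM, log2 change -1.02) and FOXA2 (20.4 and 7.70 TPM, log2 change -1.30), which drive hepatocyte genes, were lower with GDF1. HNF4A came inside 2-fold with rescaled TPM (-0.84) and with the GC trend subtracted (-0.91). NR0B2, the repressor SHP that bile acids induce, was higher (2.34 and 5.95 TPM, log2 change 1.06). CEBPB was listed at 354.6 and 200.9 TPM and CEBPA at 140.8 and 126.0 TPM, both within 2-fold, although CEBPB reached -1.03 with the GC trend subtracted.

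PXR (NR1I2), which induces CYP3A4, was at 0.23 and 0.085 TPM, and CAR (NR1I3), which induces CYP2B6, at 1.296 and 0.52 TPM. The oxysterol receptors NR1H2 (64.5 and 64.2 TPM) and NR1H3 (57.2 and 52.6 TPM) were nearly equal. Over the 25 genes the median was a log2 change of -0.15, against -0.20 over all genes.

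**Figure D4:**
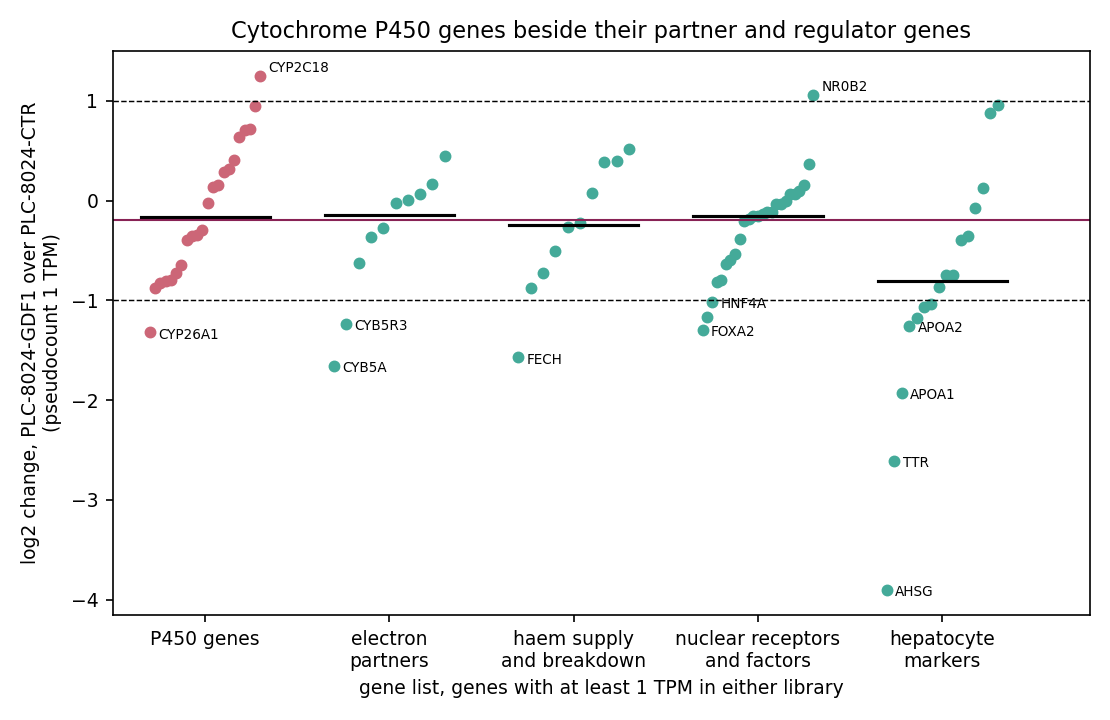
Log2 change, GDF1 library minus control (y axis, pseudocount 1 TPM) for each gene that reached 1 TPM in the P450 family and 4 lists of related genes (x axis, points ordered by value within a list). Black bars are list medians, the coloured line is the median of all genes and dashed lines mark 2-fold, and the hepatocyte markers (median -0.81) lie below the other lists, whose medians run from -0.24 to -0.15.

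The labels were checked against a few genes. GDF1 was listed at 2.096 and 4.64 TPM, and CERS1, whose exons hold the GDF1 coding sequence, at 13.3 and 9612 TPM, both higher with GDF1. All 16 hepatocyte markers examined reached 1 TPM. Of these, 7 were past 2-fold lower with GDF1 (43.8%, against 9.61% of all genes) and none was past 2-fold higher (median log2 change -0.81). The 3 markers that were higher were FGA (0.96), VTN (0.87) and TF (0.12). With rescaled TPM 4 markers were past 2-fold lower (25%) and 2 past 2-fold higher (12.5%), FGA (1.17) and VTN (1.08). Of all 14929 genes, 1022 were then lower and 1040 higher. Of the markers of other cell types, 1 of 6 fibroblast genes, 1 of 4 endothelial genes and 2 of 6 leukocyte genes reached 1 TPM, with sums of 3.80 and 2.61 TPM, 23.5 and 22.4 TPM, and 331.6 and 227.3 TPM. The leukocyte sum was mostly LYZ (298.0 and 213.5 TPM), CD68 was listed at 33.1 and 13.2 TPM, and PTPRC, MS4A1, VWF, KDR, COL1A2 and DCN were listed at 0 in both libraries. The part of these differences in the P450 levels was not tested. In a bulk library, fewer cells with a transcript and less of it per cell cannot be told apart.

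Levels over all genes also differed with the GC content of the transcript. Over the 14640 expressed genes with a GC value, the median log2 change was -0.45 among the 2928 of lowest GC content and 0.11 among the 2928 of highest. The 22 P450 genes ran from 35.8% (CYP3A5) to 67.6% (CYP2W1) GC. The 12 below the median GC content of all expressed genes had a median log2 change of -0.0068 and the 10 above it one of -0.19. This split at the median is coarser than the one used over all genes and covers few genes. The family therefore cannot be compared directly with all genes in this respect. With a smooth GC trend subtracted, 4 P450 genes were past 2-fold higher, all with transcripts of low GC content and among them CYP2C18 (1.58), CYP3A5 (1.15) and CYP2R1 (1.03). CYP26A1 (-1.13) was then the 1 gene past 2-fold lower. The part of GC content in the single changes was not tested.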

How the data were processed

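RNA was sequenced by the study as poly(A)-selected paired-end libraries of PLC-8024 cells, 1 from the control and 1 with GDF1. Per the labels and the study's methods, the authors checked reads with FastQC 0.11.2, filtered them with Trimmomatic 0.36, aligned them to hg19 with HISAT2 2.1.0, naming the RefSeq annotation, and estimated abundance with StringTie 1.3.3b. The deposited files give 1 TPM value per Ensembl gene, with 0.0001 for 0. TPM hides depth, so no interval, floor or p-value could be given. Whether counting used strand is not given in the sources used here.

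Log2 changes used a pseudocount of 1 TPM. The comparison ran across all genes that reached 1 TPM in 1 of the libraries, and members were read from it. Positions, exon overlaps with genes of at least 1 TPM, GC content and shared 100-base windows came from GENCODE v44 on GRCh37, the build the authors used, and promoter windows from RefSeq on GRCh38.p14. The GC trend was a lowess fit with a span of 0.3. Python 3.11.15, numpy 2.4.6, pandas 2.3.3, statsmodels 0.14.6 and matplotlib 3.10.9 were used, and the fold count was tested on simulated data. Named genes were all P450 genes with at least 1 TPM, those nearest below it, GDF1 and CERS1, overlapping genes, and, of each related list, genes past 2-fold and some of the highest. Counts cover all genes, but a few genes are not reported by name here. Other genes named, such as SLC25A38, TIPARP, RARB and the pseudogenes, were chosen after their values were seen. The members and lists were chosen with earlier results of these data known.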

Additional observations from a re-analysis of the deposited data

How the results depend on the processing

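No paired analysis was possible because a single library stood for either condition, so none could be left out. The number of P450 genes past 2-fold, 2 at first (1 higher, 1 lower), was 1 (1 higher, 0 lower) at a minimum of 5 TPM, 4 (2 higher, 2 lower) with a pseudocount of 0.1 TPM, 5 (2 higher, 3 lower) with the plain ratio, 3 (2 higher) with rescaled TPM and 5 (4 higher) with the GC trend subtracted. Over all genes the share past 2-fold, 14.4% at first, was 15.7% at a minimum of 5 TPM, 23.3% with a pseudocount of 0.1 TPM, 24.0% with the plain ratio, 13.8% with rescaled TPM and 12.3% with the GC trend subtracted. CYP2C18 and CYP26A1 kept their side of 2-fold under each of these settings in which they were tested, and CYP26A1 is under the minimum of 5 TPM. The genes added were CYP2W1 (1.497 with a pseudocount of 0.1 TPM, 1.09 rescaled), CYP39A1 (-1.47 with a pseudocount of 0.1 TPM) and CYP27B1 (-1.06, plain ratio only).

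The median log2 change of the P450 genes was small and changed sign, to 0.027 with the GC trend subtracted and 0.057 without the 2 genes that overlap another expressed gene, and was 0 with no minimum. The log2 change of the summed TPM (-0.044) turned to 0.16 with rescaled TPM and to 0.17 without CYP2S1, and was -0.24 without CYP2C18, a setting chosen after seeing the data, so the family as a whole had no firm direction. Receptors and factors past 2-fold numbered 2 in place of 4 with rescaled TPM, where HNF4A (-0.84) was among those that came inside 2-fold, and the count of partner and haem genes was 3 under each setting run. Hepatocyte markers went from 7 lower and 0 higher to 4 lower and 2 higher with rescaled TPM. Adding METTL1 to CYP27B1 gave 0.61, which is the direction of METTL1 by construction. Among the P450 genes with at least 1 TPM, the small change of CYP2J2 reversed with the GC trend subtracted (0.079). With rescaled TPM, small changes that reversed included those of CYP2D7 (0.13), ALDH1A1 (0.080), CEBPA (0.047), DHRS3 (0.15), NR1H2 (0.20), NR1H3 (0.084) and RARB (0.085). RARB (0.37), ALDH1A1 (0.24), ARNT (0.078), DHRS3 (0.044) and NR1I2 (0.0065) were among the related genes that reversed with the GC trend subtracted. Both settings move most genes upwards by their construction. Missing depth limits the members near 1 TPM most.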
